A study of Mus musculus with 6 samples.

Results

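Protocadherins are the largest family of cadherin-like adhesion proteins in the brain. The 68 genes described here are those whose symbol starts with Pcdh among the 17348 genes listed in the deposited table, and the choice used symbols only. They comprise 14 Pcdha, 21 Pcdhb and 21 Pcdhg genes, which lie side by side on chromosome 18 and are called clustered (56 genes), and 12 non-clustered genes on several chromosomes. Pcdhb1 and Pcdhgb8 were not analysed here.

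RNA was sequenced from dissected cortex of E13.5 mouse embryos, from 3 embryonic samples labelled wild type (WT) and 3 with a conditional knockout of Ybx1 (cKO). Ybx1 encodes an RNA-binding protein. The cKO embryos carried the Nestin-Cre transgene and floxed Ybx1 alleles (Nestin-Cre, Ybx1 fl/fl), so that a block of exons was removed in neural progenitors and their progeny, whereas vessels, meninges and blood have another origin. The sources differ on the controls, since the labels call these littermates wild type whereas the study elsewhere describes controls with floxed alleles and no Cre, and which holds for the sequenced samples cannot be told apart here. The study calls the 3 samples of a genotype independent replicates, but whether each was 1 embryo or a pool is not given in the sources used here.

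Clustered protocadherins give single neurons a surface identity. Each neuron switches on a small set of promoters, the proteins bind copies of themselves on neighbouring membranes, and branches of the same neuron use this to recognise and avoid each other. Promoter choice depends on the DNA-looping protein Ctcf, cohesin and DNA methylation. The genes at the 3' end of the Pcdha and Pcdhg clusters (the C-types Pcdhac1, Pcdhac2, Pcdhgc3, Pcdhgc4 and Pcdhgc5) do not follow random choice and are made by most neurons that use them. The non-clustered genes act one by one in axon growth, cell sorting and synapse formation, and the cytoplasmic tails of several bind regulators of the actin cytoskeleton. In bulk tissue each value is a sum over all cells, and fewer cells that use a gene cannot be told apart from less RNA per cell.

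No protocadherin passed the threshold in the comparison of cKO with WT. The fit was edgeR's quasi-likelihood test over all 13340 genes that passed a filter on low counts, with Benjamini-Hochberg adjustment and a threshold of 0.05. It called 0 of the 65 protocadherins tested, beside 0 of all genes (0%). The targeted gene Ybx1, with a log2 fold change of -3.00, did not pass in this fit either (Benjamini-Hochberg adjusted p 0.128). A gene that did not pass is thus not shown to be unchanged. At an unadjusted p under 0.05, 7 protocadherins were lower and 0 were higher in cKO, against a background of 1.81% of all genes lower and 1.75% higher. In 10 of the 65 all cKO libraries were lower than all WT libraries (background 4.83%) and in 1 all were higher (background 4.21%). Of the 65, 51 had a negative log2 fold change (78.5%), whereas 49.2% of all genes tested did. Negative values numbered 41 of 67 tested without WT replicate 1, 42 of 65 without cKO replicate 2 and 45 of 67 without cKO replicate 3. Over all genes tested these were 6344 of 13476, 6867 of 13511 and 6485 of 13424. The count of 7 was 4 without WT replicate 1, without cKO replicate 2, or without cKO replicate 3 and the library labelled WT replicate 2 together. The median log2 fold change was -0.17 over the protocadherins and 0.00 over all genes. Every tested protocadherin had an adjusted p-value of 0.99995 in this edgeR fit, and the lowest of any gene was 0.0953. A rank by p, given for single genes, is a place among the 13340 genes tested. The genes with the largest negative values were Pcdhb2, Pcdha12, Pcdhb15 and Pcdhb18, all in the alpha and beta clusters. These clusters had the lowest counts and the widest standard errors (median 0.26 for Pcdhb and 0.23 for Pcdha, against 0.18 for Pcdhg and 0.14 for non-clustered genes). Large values in either direction thus come more easily there. Pcdhb2 and Pcdhb15 also passed the filter through their level in WT.

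**Figure D1:**
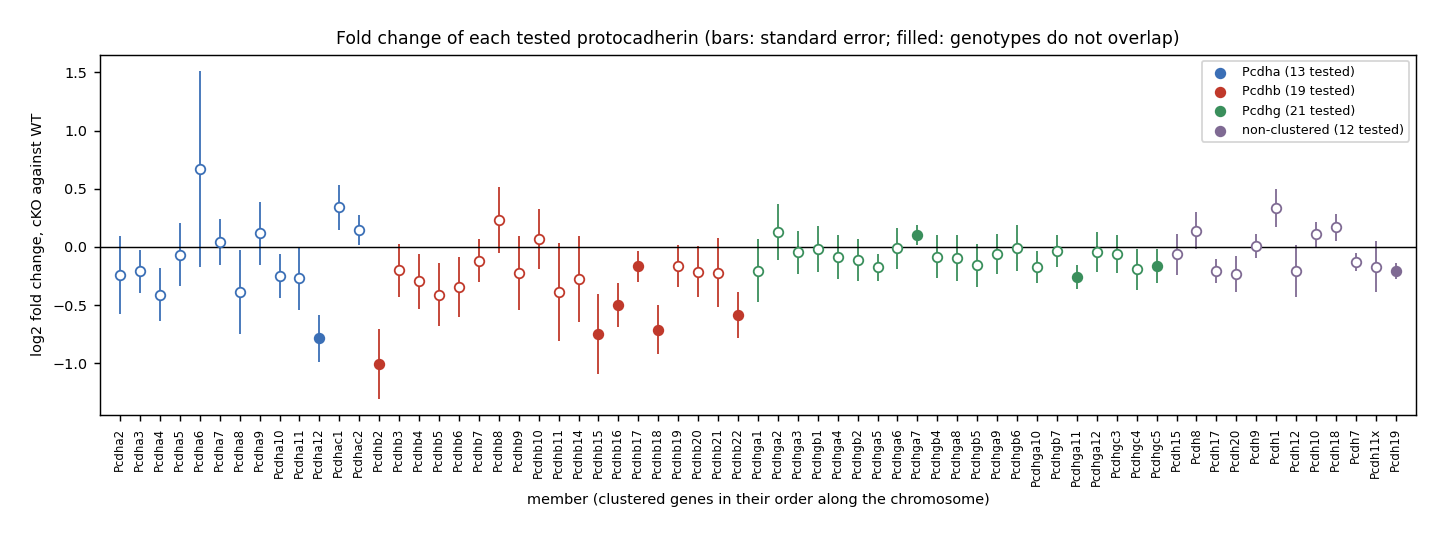
Log2 fold change of each of the 65 tested protocadherins, cKO against WT, with its standard error as a bar. The clustered genes stand in chromosome order, and filled points mark genes whose 3 cKO libraries all lay on the same side of all 3 WT libraries. Most points lie below 0, the lowest being Pcdhb2 at -1.004, and the Pcdhg points lie nearest to 0 with a median of -0.08.

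The libraries were of like depth, with 15907491 to 16282929 estimated counts each, so that 3 counts, taken here as the floor of detection, amount to 0.181 to 0.188 CPM (counts scaled for depth with TMM factors). This floor covers counting error only. Ybx1 itself was checked first, since it tests the labels. It was at 1021, 528 and 1220 CPM in WT replicates 1, 2 and 3 and at 83.1, 117 and 147 CPM in the cKO replicates. Its log2 fold change in the edgeR fit, -3.00, had a standard error (SE) of 0.33 and a Benjamini-Hochberg adjusted p of 0.128. The library labelled WT replicate 2 thus lay below the other WT libraries and above every cKO library. The reason was not tested, and the library is treated here as in doubt. The library of cKO replicate 3 held 567 CPM of meninges and mesenchyme markers (8 genes) and 238 CPM of surface epidermis markers (7 genes), against at most 17.6 and 1.88 CPM in any other library. In that library Col3a1 (collagen) reached 181 CPM and Krt5 (basal keratin) 130 CPM. Markers of ventral forebrain and interneurons (10 genes) summed to 69.5 to 124 CPM in WT and to 144 to 154 CPM in cKO. The cortical marker Emx1 was present in every library at 78.8 to 99.4 CPM and Tbr1, a marker of early cortical neurons, at 412 to 555 CPM, whereas the choroid plexus markers (3 genes) summed to at most 0.502 CPM.

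How the exons are arranged decides what the counts of each gene can tell. A Pcdha or Pcdhg gene has its own promoter and a large first exon, which encodes the extracellular part, and this exon is spliced to 3 constant exons shared by the whole cluster. Pcdhb genes are single exons with no constant part. In the GENCODE M21 transcripts, members of Pcdha ended in an identical stretch of 2860 to 2866 bases, and members of Pcdhg in one of 2116 to 2130 bases. Of all windows of 100 bases along a transcript, 41.6% to 52.3% (median 44.9%) were found in no other protocadherin for Pcdha and 50.4% to 59.3% (median 55.9%) for Pcdhg. For Pcdhb this was 92.3% to 100% (median 99.8%), and for the non-clustered genes 100%.

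The deposited counts carry the mark of this sharing. Of the Pcdha values, 91.7% were not whole numbers (further than 0.01 from one), as were 96.0% of the Pcdhg values, against 0% of the Pcdhb and non-clustered values and 10.5% over all genes. Values that are not whole arise where a counting model divides a read among genes that share its sequence. A single Pcdha or Pcdhg count rests in part on that division, whereas the sum over a cluster does not depend on how reads were divided within it. Pcdha6, chosen after its values were seen, varied most. It was listed at 0 in WT replicate 3 and at 22.9 and 24.8 estimated counts in WT replicates 1 and 2, and its SE of 0.84 on the log2 scale was the widest of all members tested. The part of shared reads in this value was not tested.

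**Figure D2:**
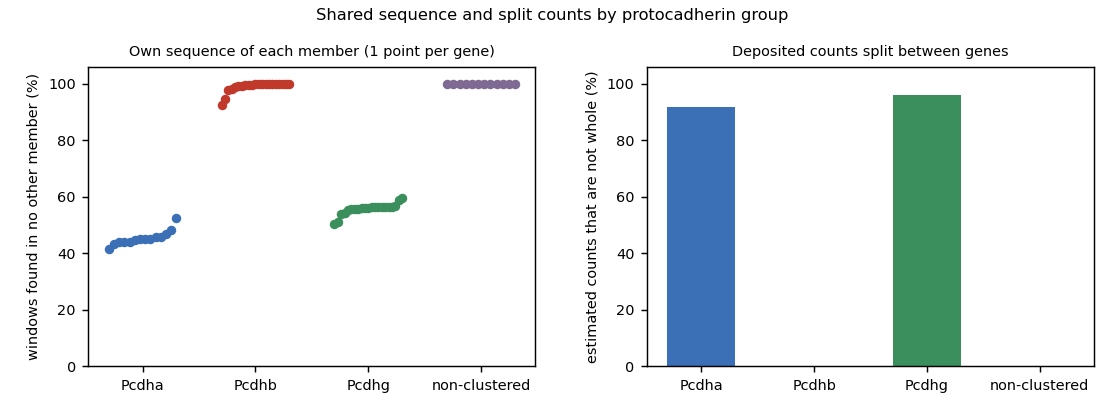
Left, the share of 100-base windows of each transcript that occur in no other protocadherin, 1 point per gene. Right, bars give the share of deposited estimated counts that are not whole numbers in each group. The Pcdha and Pcdhg genes have about as much shared as own sequence and over 90% split counts (91.7% and 96.0%), whereas both other groups have 0% split counts and at least 92.3% own windows.

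The Pcdhb cluster (chromosome 18, 37294840 to 37521419, GRCm38.p6) shares few reads between genes, but its counts were low and its median SE of 0.26 on the log2 scale was wider than those of the other groups (0.23 for Pcdha, 0.18 for Pcdhg and 0.14 for the non-clustered genes). Pcdhb proteins lack the constant cytoplasmic tail and pair with alpha and gamma members at the cell surface. Of its 21 genes, 19 were tested and 17 had a negative log2 fold change (49.2% of all genes did). The median was -0.28, which became -0.15 without cKO replicate 2. At an unadjusted p under 0.05, 4 were lower in cKO and 0 were higher in the edgeR fit (background 1.81% and 1.75%). For 6 of the 19, no cKO library reached the lowest WT library (background 4.83%), and for 0 of them all cKO values were above WT (background 4.21%). The 6 include Pcdhb2 and Pcdhb15, and the 4 include Pcdhb2, which passed the filter through their level in WT. Their place in these counts is thus in part given by the filter. Without WT replicate 1, or without cKO replicate 2, the count at an unadjusted p under 0.05 was 2, and without cKO replicate 3 and the library labelled WT replicate 2 together it was 1 of 20 tested. The counts behind these values were small, with a median of 27.0 estimated counts per gene and library.

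Pcdhb2 (chromosome 18, 37294840 to 37297614) had the largest negative value of the family. It was at 1.32, 1.67 and 1.25 CPM in WT and at 0.686, 0.878 and 0.543 CPM in cKO, which corresponds to 20 to 27 estimated counts in WT and 9 to 14 in cKO. The genotypes did not overlap. The log2 fold change was -1.004 (SE 0.30, rank 79 of all genes by p). Pcdhb2 passed the filter on low counts through its WT libraries, since all 3 of them but only 2 of the cKO libraries reached the cutoff of 0.62 CPM. The same held for Pcdhb14 and Pcdhb15, and Pcdhb11 had 1 cKO library over the cutoff, so 4 genes of this cluster entered the test through their level in WT. With no filter, 18 of 21 Pcdhb genes had a negative value and the median log2 fold change was -0.23. In that edgeR fit 4 of the 21 were lower at an unadjusted p under 0.05, beside 1.5% of all genes.

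Pcdhb18 (37489465 to 37494503) was at 2.95, 3.41 and 3.69 CPM in WT and at 1.93, 2.38 and 1.81 CPM in cKO. Its highest cKO library stayed below its lowest WT library, and the log2 fold change was -0.71 (SE 0.21, rank 70 of all genes by p). Pcdhb22 (37518353 to 37521419), the last gene of the cluster, was at 3.58, 3.72 and 3.38 CPM in WT and at 2.68, 1.94 and 2.47 CPM in cKO. It gave a log2 fold change of -0.59 (SE 0.20, rank 155 of all genes by p), again without overlap. Of the windows of its GENCODE transcript (6609 bases), 94.5% were its own, so some of that transcript is shared with other members. The deposited FPKM imply a shorter length of 2789 bases, and all its deposited counts were whole numbers.

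The remaining genes without overlap were Pcdhb15, Pcdhb16 and Pcdhb17, which together with Pcdhb18 are 4 neighbours in the cluster. They were chosen after their values were seen. Pcdhb16 was at 3.14, 2.97 and 2.88 CPM in WT and at 2.06, 2.01 and 2.29 CPM in cKO, a log2 fold change of -0.50 (SE 0.19, rank 267 of all genes by p). Pcdhb15 was at 1.13, 0.929 and 1.38 CPM in WT and at 0.874, 0.439 and 0.724 CPM in cKO. Its log2 fold change of -0.75 had an SE of 0.34, and of the tested Pcdhb genes Pcdhb11 and Pcdhb14 had a wider one.

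The Pcdhb genes with the highest levels per length were Pcdhb17, Pcdhb7 and Pcdhb20, at 3.83 ± 0.298, 3.23 ± 0.463 and 2.93 ± 0.645 TPM (a unit scaled for depth and transcript length, SD, n = 6). These levels differ by less than the sum of their spreads from one gene to the next. Pcdhb17 was at 5.72, 5.58 and 6.0 CPM in WT and at 5.12, 5.08 and 5.19 CPM in cKO, a narrow step without overlap and a log2 fold change of -0.17 (SE 0.14). Pcdhb7 had a log2 fold change of -0.12 (SE 0.18) and Pcdhb20 of -0.21 (SE 0.22), both with overlapping genotypes. These values were smaller in size than those of Pcdhb2, Pcdhb18 or Pcdhb22. The latter were named for their small p-values, so the contrast follows in part from that choice and gives no relation to level. Of the tested Pcdhb genes, only Pcdhb8 and Pcdhb10, named after their values were seen, had a positive log2 fold change, of 0.23 (SE 0.28) and 0.07 (SE 0.26). Pcdhb12 and Pcdhb13 failed the filter, with 5 to 13 and 4 to 11 estimated counts per library. Pcdhb13 was at 0.251 to 0.434 CPM in WT and at 0.422 to 0.686 CPM in cKO, with overlap.

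**Figure D3:**
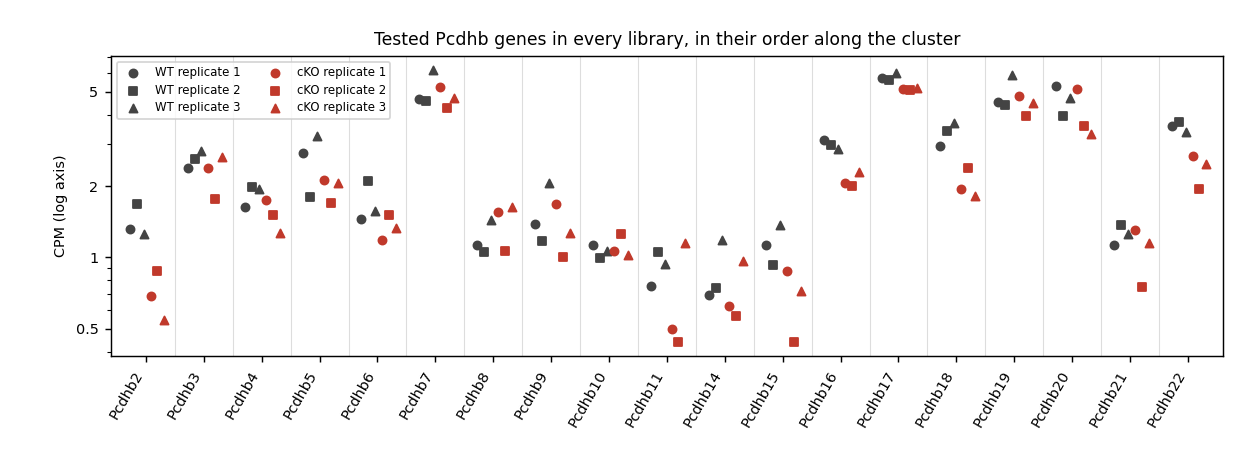
CPM of the 19 tested Pcdhb genes in each library on a log axis, grey for WT and red for cKO, with a marker shape per replicate. The red points lie wholly below the grey ones for 6 genes, 4 of which are the neighbours Pcdhb15 to Pcdhb18. The highest gene, Pcdhb17, shows a narrow step from 5.58 to 6.0 CPM in WT to 5.08 to 5.19 CPM in cKO.

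Within a genotype, the Pcdhb counts varied about as much as counting alone gives. The ratio of variance to mean of the counts had a median of 0.830 over the tested Pcdhb genes, where a value near 1 is that of counting error, against 4.16 for Pcdha, 8.95 for Pcdhg, 4.33 for the non-clustered genes and 3.93 for all genes tested. The mean counts differ between these groups (median 69.4 for Pcdha, 256 for Pcdhg and 481 for the non-clustered genes), so the ratios do not compare like with like. Summed over all 21 genes, Pcdhb reached 47.3, 47.2 and 54.0 CPM in WT and 43.7, 37.3 and 41.0 CPM in cKO. The cKO mean was 82.1% of the WT mean, a log2 ratio of -0.28, and the genotypes did not overlap. On the TPM scale they did overlap, with 29.4 in the library labelled WT replicate 2 below 29.8 in cKO replicate 1. The interneuron markers named above were higher in every cKO library than in every WT library while the Pcdhb sum was lower, and their part in this result was not tested.

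**Figure D4:**
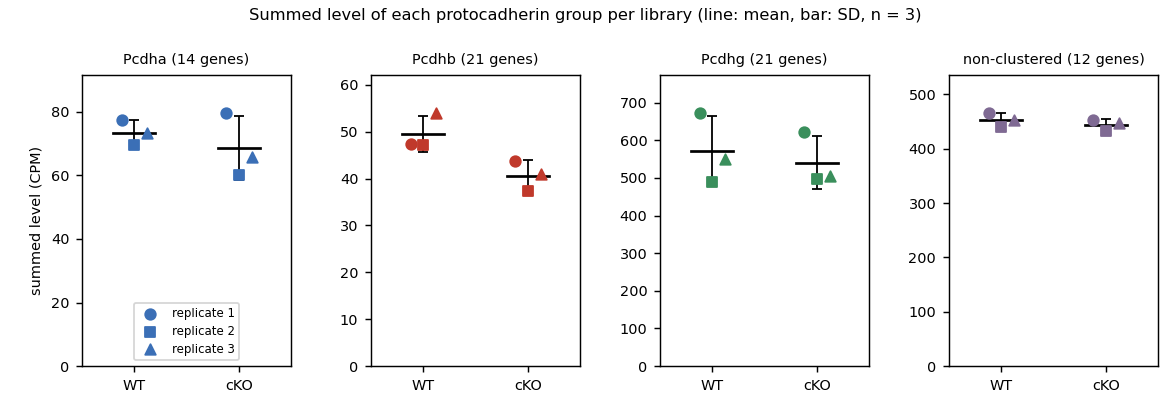
Summed CPM of each protocadherin group per library, with the mean as a line, the SD as a bar (n = 3) and a marker shape per replicate. The Pcdhb sums separate the genotypes, 47.2 to 54.0 in WT against 37.3 to 43.7 in cKO, whereas the sums of the other groups overlap. In Pcdhg, replicate 1 is highest in both genotypes (673 and 622).

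In the Pcdha cluster (chromosome 18, 36930285 to 37188897) the negative values were all those of alternate genes, which neurons choose at random, whereas both C-types had positive values, as did Pcdha6, Pcdha7 and Pcdha9. Of 14 genes, 13 were tested and 8 had a negative log2 fold change (49.2% of all genes did). The median was -0.21, which became -0.04 without cKO replicate 2 and likewise without cKO replicate 3. At an unadjusted p under 0.05, 1 was lower and 0 were higher in the edgeR fit (background 1.81% and 1.75%). The genotypes of 1 gene did not overlap, with cKO lower (background 4.83%). Both Pcdha8, with 3 WT and 2 cKO libraries above the filter's cutoff, and Pcdha6, with 3 cKO and 2 WT libraries above it, reached the 3 libraries that the filter asks for within 1 genotype only. With no filter 8 of all 14 were negative and the median was -0.14. Pcdha1 failed the filter with 4.85 to 11.6 estimated counts per library.

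That gene was Pcdha12 (37020230 to 37187657), the last alternate gene before the C-types and, after Pcdhac2, the member with the highest level, at 3.82 ± 1.37 TPM (SD, n = 6). It was at 13.3, 9.42 and 11.5 CPM in WT and at 8.11, 5.02 and 6.70 CPM in cKO. The genotypes did not overlap, and the log2 fold change was -0.78 (SE 0.20), rank 25 of all genes by p. Because 46.9% of its windows are its own, the count still rests in part on the division of shared reads. Pcdha4 was at 5.40, 3.53 and 5.88 CPM in WT and at 4.24, 3.32 and 3.56 CPM in cKO, a log2 fold change of -0.41 (SE 0.23) with overlap through the library labelled WT replicate 2. Pcdha11 overlapped widely, with 3.59 to 7.50 CPM in WT and 4.06 to 5.49 CPM in cKO (log2 fold change -0.27, SE 0.27).

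Pcdhac2, known for its part in the even spacing of serotonergic axons, was the most abundant Pcdha transcript at 7.99 ± 1.24 TPM (SD, n = 6). It was at 20.6, 19.5 and 18.6 CPM in WT and at 25.6, 18.9 and 20.5 CPM in cKO, so that only cKO replicate 1 stood above the WT libraries. The log2 fold change was 0.15 (SE 0.13). Pcdhac1 was at 3.02, 3.97 and 3.38 CPM in WT and at 4.93, 4.45 and 3.74 CPM in cKO, with overlap (log2 fold change 0.34, SE 0.19).

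Summed over the cluster, Pcdha reached 77.5, 69.6 and 73.3 CPM in WT and 79.7, 60.2 and 65.9 CPM in cKO, and the genotypes overlapped, with a cKO mean of 93.4% of WT. Without the C-types the cKO mean was 84.4% of WT, and the C-types alone gave 113%, with overlap in both. Pcdhac2 made up 25.3% to 28% of the Pcdha counts in WT and 31.0% to 32.1% in cKO. This share did not overlap between the genotypes, but it is a description, since it was computed after the values were seen and a share of a cluster moves with the division of shared reads.

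The Pcdhg cluster (chromosome 18, 37661775 to 37841873) was the most abundant, with summed levels of 673, 490 and 549 CPM in WT and 622, 496 and 505 CPM in cKO. Gamma proteins are needed for the survival of spinal and cortical interneurons and for dendrite branching. All 21 genes were tested. The log2 fold changes lay between -0.26 and 0.13 with a median of -0.08, and 19 were negative (49.2% of all genes were). That number was 8 without WT replicate 1, 11 without cKO replicate 2 and 13 without cKO replicate 3. Over all genes tested, negative values in these settings numbered 6344 of 13476, 6867 of 13511 and 6485 of 13424. The cKO mean of the sum was 94.8% of WT, with wide overlap, since replicate 1 was the highest library of its genotype in both. Without WT replicate 1 the median turned to 0.08 and the log2 ratio of the sums from -0.08 to 0.06, so the direction of this group rests on that library.

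Pcdhga11 was the only Pcdhg gene with an unadjusted p under 0.05 in the edgeR fit (background 1.81% of all genes lower). It was at 61.6, 49.9 and 51.3 CPM in WT and at 48.9, 45.4 and 41.7 CPM in cKO. The highest cKO library lay just below the lowest WT library, and the log2 fold change was -0.26 (SE 0.10, rank 354 of all genes by p). At 23.7 ± 3.84 TPM (SD, n = 6) it was the most abundant alternate Pcdhg gene, followed by Pcdhgb6 at 19.7 ± 4.58 TPM, and these levels differ by less than their spread. Pcdhgb6 had a log2 fold change of -0.01 (SE 0.20). Pcdhga5 and Pcdhga10 had log2 fold changes of -0.17 each (SEs 0.12 and 0.14), with overlap. By subfamily, the cKO mean was 93.7% of WT for the 12 Pcdhga genes and 96.2% for the 6 Pcdhgb genes, both with overlap. Pcdhga7, chosen after its values were seen, was the single protocadherin whose cKO libraries all lay above the WT libraries. It was at 25.4, 23.2 and 23.1 CPM in WT and at 25.5, 25.8 and 25.7 CPM in cKO, a log2 fold change of 0.10 (SE 0.08).

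Among the gamma C-types, Pcdhgc3 was the most abundant protocadherin of all, at 84.8 ± 17.4 TPM (SD, n = 6). Pcdhgc3 is known to bind Axin1 and to promote dendrite growth. It was at 216, 152 and 174 CPM in WT and at 212, 153 and 154 CPM in cKO, with overlap, and its log2 fold change was -0.06 (SE 0.16). It made up 30.5% to 34.1% of the Pcdhg counts in the 6 libraries. Pcdhgc4, the isoform needed for the survival of interneurons, was at 14.6, 10.4 and 13.2 CPM in WT and at 13.4, 9.03 and 10.98 CPM in cKO. Its genotypes overlapped (log2 fold change -0.19, SE 0.18). Pcdhgc5, which is made mostly after birth, was the least abundant gamma gene at 2.25 ± 0.182 TPM. It was at 5.09, 4.96 and 5.0 CPM in WT and at 4.12, 4.58 and 4.71 CPM in cKO, without overlap, and its log2 fold change was -0.17 (SE 0.15).

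The 12 non-clustered genes were all tested, and their reads were whole numbers throughout. Of these, 7 had a negative log2 fold change (49.2% of all genes did) and the median was -0.10. At an unadjusted p under 0.05 in the edgeR fit, 1 was lower and 0 were higher (background 1.81% and 1.75%). The median was -0.03 without WT replicate 1, -0.04 without cKO replicate 2 and -0.06 without cKO replicate 1. Their summed level was 466, 440 and 452 CPM in WT and 452, 432 and 447 CPM in cKO, with a cKO mean of 98.0% of WT. On the TPM scale the log2 ratio of the sums was 0.02 instead of -0.03. By its sum, the group was the one closest to equal levels between the genotypes.

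**Figure D5:**
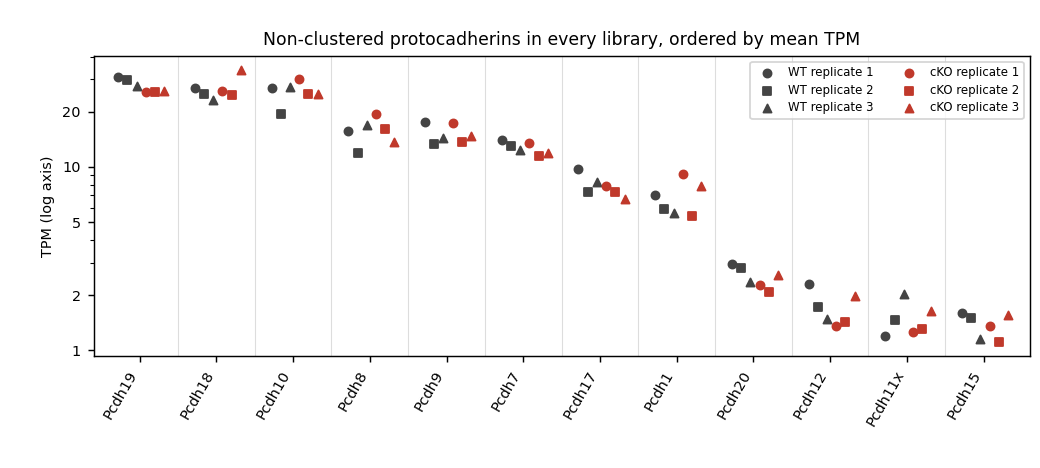
TPM of the 12 non-clustered protocadherins in each library on a log axis, ordered by their mean, grey for WT and red for cKO, with a marker shape per replicate. The order runs from Pcdh19 at 27.6 to Pcdh15 at 1.38 TPM. The genotypes overlap for all genes on this scale except Pcdh19, and cKO replicate 3 stands above the rest for Pcdh18 (33.9).

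Levels per length, as the mean and SD of TPM over the 6 libraries, fell into steps. Pcdh19, Pcdh18 and Pcdh10 led with 27.6 ± 2.30, 26.6 ± 3.75 and 25.7 ± 3.64 TPM and did not differ beyond their spread. Pcdh8, Pcdh9 and Pcdh7 followed with 15.6 ± 2.59, 15.2 ± 1.86 and 12.7 ± 0.979 TPM, again within their spread of each other. Next came Pcdh17 with 7.88 ± 1.08 and Pcdh1 with 6.83 ± 1.48 TPM, also within their spread. Pcdh20 was at 2.51 ± 0.337 TPM, and Pcdh12, Pcdh11x and Pcdh15 closed the order with 1.71 ± 0.371, 1.48 ± 0.311 and 1.38 ± 0.207 TPM, which did not differ beyond their spread.

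For a gene of high and a gene of low level in this order, the sequence before the start of transcription is shown. Neither is the first or the last of the order. A RefSeq window (GRCm38.p6) was given for 9 of the 68 members, all of them non-clustered. It was read over the 250 bases before the start used for that window, which need not be the first base of the gene. In 4 of these the window lies outside the annotated span of its own gene, and of those Pcdh10 has the highest and Pcdh20 the lowest level. Capitals mark CpG dinucleotides (C followed by G), the letters that DNA methylation acts on. The Pcdh10 window is chr3:45378148-45378397 on the plus strand and the Pcdh20 window is chr14:88471397-88471646 on the minus strand, both written 5′ to 3′.
Pcdh10: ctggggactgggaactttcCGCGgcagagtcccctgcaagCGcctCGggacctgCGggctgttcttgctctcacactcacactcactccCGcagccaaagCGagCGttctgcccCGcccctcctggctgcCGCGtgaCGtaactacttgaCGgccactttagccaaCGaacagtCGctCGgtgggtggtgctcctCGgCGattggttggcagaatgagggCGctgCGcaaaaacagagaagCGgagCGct
Pcdh20: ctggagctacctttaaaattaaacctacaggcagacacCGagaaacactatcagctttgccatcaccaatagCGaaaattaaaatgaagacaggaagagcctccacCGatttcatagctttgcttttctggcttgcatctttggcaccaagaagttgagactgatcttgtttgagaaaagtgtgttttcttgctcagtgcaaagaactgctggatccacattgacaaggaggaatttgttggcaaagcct
The Pcdh10 window holds 22 CpG and the Pcdh20 window 3. Over the windows of all 27025 genes the median was 6, with quartiles of 2 and 16, and 91.7% held at least 1. Of the other 7 members, Pcdh17 had 21 and Pcdh8 had 11, with windows outside the span of their gene. Pcdh18 had 23, Pcdh9 had 18, Pcdh19 had 16, Pcdh7 had 7 and Pcdh15 had 6. The windows of these last genes lie wholly or partly inside the span of their own gene, so they are not like the printed ones. Pcdh17 holds nearly as many as Pcdh10 at less TPM, and more than Pcdh8, which has the higher level (15.6 against 7.88 TPM). A relation between the count of CpG and the level was not tested. These are counts of letters, and methylation was not measured here.

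The delta-2 protocadherins are Pcdh8, Pcdh10, Pcdh17, Pcdh18 and Pcdh19, and several of them are known to recruit actin regulators to cell contacts. Pcdh19 (chromosome X, 133582860 to 133689044), an X-linked gene mutated in an epilepsy of girls and a partner of N-cadherin, was the only one of the non-clustered genes without overlap. It was at 134, 139 and 127 CPM in WT and at 111, 120 and 116 CPM in cKO. The log2 fold change was -0.21 with the smallest SE of the family, 0.07 (rank 111 of all genes by p). The Y-linked gene Ddx3y was detected in WT replicate 1 and cKO replicates 1 and 3 and at 0 counts in the others. The part of this difference between libraries in the Pcdh19 values was not tested.

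Pcdh18, which binds the adaptor Dab1, was at 59.4, 60.5 and 55.4 CPM in WT and at 58.5, 59.8 and 78.7 CPM in cKO. Only cKO replicate 3 stood apart, the library with the mesenchymal and epidermal markers. The log2 fold change was 0.17 (SE 0.12) with that library and 0.02 without it. Pcdh10, known for guiding axons through the ventral forebrain, was at 68.2, 57.1 and 75.4 CPM in WT and at 76.4, 70.8 and 69.1 CPM in cKO (log2 fold change 0.11, SE 0.10). Pcdh17, which brings the actin-regulating WAVE complex to axon contacts, was at 38.3, 31.2 and 35.4 CPM in WT and at 31.7, 31.4 and 27.9 CPM in cKO. The library labelled WT replicate 2 alone kept the genotypes of Pcdh17 from separating (log2 fold change -0.21, SE 0.10). Pcdh8, an activity-regulated adhesion protein, overlapped widely at 21.4 to 30.0 CPM in WT and 23.7 to 32.4 CPM in cKO (log2 fold change 0.14, SE 0.16).

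The delta-1 group holds Pcdh1, Pcdh7, Pcdh9 and Pcdh11x. Pcdh1 was at 19.8, 18.2 and 16.9 CPM in WT and at 28.1, 17.8 and 23.5 CPM in cKO. It gave the largest positive value of the non-clustered genes, a log2 fold change of 0.34 (SE 0.16), but cKO replicate 2 lay within the WT range. Pcdh7 was at 50.4, 50.6 and 48.4 CPM in WT and at 49.0, 44.0 and 43.4 CPM in cKO, with overlap (log2 fold change -0.13, SE 0.08). Pcdh9 had near equal levels, at 38.4 to 46.8 CPM in WT and 39.6 to 46.7 CPM in cKO (log2 fold change 0.01, SE 0.10). The X-linked Pcdh11x was at 4.71 to 7.94 CPM in WT and 4.74 to 6.39 CPM in cKO (log2 fold change -0.17, SE 0.22).

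The last 3 genes belong to other branches. Pcdh20, which marks subsets of cortical neurons, was at 6.66, 6.88 and 5.69 CPM in WT and at 5.18, 5.08 and 6.09 CPM in cKO (log2 fold change -0.23, SE 0.15). Pcdh12, a gene of endothelial cells, was at 5.53, 4.52 and 3.81 CPM in WT and at 3.31, 3.70 and 5.01 CPM in cKO (log2 fold change -0.20, SE 0.22). WT replicate 1 and cKO replicate 3, its highest libraries, also had the most endothelial markers (8 genes), 105 and 110 CPM against 77.6 to 86.0 CPM elsewhere, and their part in the Pcdh12 values was not tested. Pcdh15, a component of the tip links of sensory hair cells, was the lowest of the group and had a log2 fold change of -0.06 (SE 0.18).

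Genes known to act on protocadherin promoters or tails were read out from the same edgeR fit. Of 18 regulators of promoter choice, all were tested and 0 passed at an adjusted or an unadjusted p under 0.05 in either direction. Of these, 15 had negative values (49.2% of all genes did), with a median log2 fold change of -0.06. Among all genes, 1.81% were lower and 1.75% higher at an unadjusted p under 0.05. Ctcf, named for its role, was at 233 ± 10.6 CPM in WT and 232 ± 10.7 in cKO (SD, n = 3 each), with a log2 fold change of -0.0027 (SE 0.07). The smallest p-values were those of the cohesin-associated Pds5a and the cohesin subunit Rad21, with log2 fold changes of -0.13 and -0.17, and of the DNA methyltransferase Dnmt3b, with -0.22 (SEs 0.08, 0.10 and 0.14). Of 18 cytoplasmic partners, 16 were tested, again 0 passed either threshold, and the median log2 fold change was -0.02. The smallest p-values were those of Marcks, Dab1 and Wasf2 (a WAVE complex subunit), with log2 fold changes of -0.12, -0.10 and -0.11. Axin1, named as the partner of Pcdhgc3, was at 70.6 ± 4.58 CPM in WT and 72.8 ± 0.795 CPM in cKO (SD, n = 3 each).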

How the data were processed

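The authors extracted total RNA from dissected E13.5 cortex, made mRNA libraries with a kit and read them by DNBSEQ sequencing. The submitters' processing notes name HISAT2 2.2.1, Bowtie2 2.4.5 and RSEM 1.3.1 and the builds GRCm38 and mm10 without their roles. The annotation and strand setting are not given in the sources used here, so reads of overlapping or antisense genes cannot be told apart. Estimated counts were deposited by the authors per gene and library, not normalised. The authors also deposited TPM, corrected for transcript length, and FPKM, which the authors had corrected likewise and which served here only to read that length. Group averages in the table were not used.

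Estimated counts were rounded, filtered with filterByExpr (minimum count 10, minimum total count 15) and fitted with edgeR 4.0.16 (R 4.3.3, TMM factors of 0.9865 to 1.029, glmQLFit and glmQLFTest, genotype as the only term), with Benjamini-Hochberg adjustment over 13340 genes. The common dispersion was 0.0169. The standard error is the log2 fold change divided by the square root of F. With 3 against 3 libraries the smallest two-sided p of an exact permutation test is 0.1. Replicates came from the titles. Coordinates are RefSeq GRCm38.p6, and shared sequence was read from GENCODE M21 transcripts. The genes named are the targeted gene, the C-types, in each group the 3 with the smallest p-values and the 3 with the highest mean TPM, all tested non-clustered genes and those that failed the filter, and any other gene is said to be chosen by its values. The summed level of the cortical marker list is not reported here. The members and lists were chosen with earlier results of these data known.

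The alternatives were RLE factors, no filter, DESeq2 1.42.0, the exact test of edgeR, quality weights (limma-voom), log2(TPM + 1) values in limma, the replicate number as a block, each library left out in turn, and cKO replicate 3 left out with the library labelled WT replicate 2.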

Additional observations from a re-analysis of the deposited data

How the results depend on the processing

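No protocadherin passed the adjusted threshold of 0.05 under any of the 14 alternatives. Genes higher and lower in cKO at that threshold, 0 and 0 in the reported fit, numbered 2 and 2 with DESeq2, 2 and 1 with quality weights (limma-voom), 2 and 1 in the exact test of edgeR, 1 and 1 with the replicate block, 0 to 1 in each direction with single libraries left out, and 1 and 1 without both libraries in doubt (cKO replicate 3 and the library labelled WT replicate 2). Protocadherins lower at an unadjusted p under 0.05, 7 as reported, numbered 11 with quality weights (where the background was 4.92% of all genes lower and 4.86% higher), 4 to 10 with single libraries left out and 4 without both libraries in doubt. Those higher, 0 as reported, numbered 3, 0 to 1 and 1 in the same settings and 1 with the replicate block (background 3.57%). The share of all genes higher was 0.895% to 4.23% with single libraries left out and 0.787% without both libraries in doubt. The Pcdhb count of 4 was 2 to 5 with single libraries left out and 1 without both libraries in doubt, beside the same backgrounds of genes lower. Pcdhb genes with a negative value numbered 14 to 18 over all alternatives, of 19 to 21 tested (49.2% of all genes were negative in the reported fit). The median log2 fold change of Pcdhb stayed between -0.41 and -0.14, that of Pcdha was -0.18 to -0.040 with single libraries left out, that of Pcdhg -0.17 to 0.08, and that of the non-clustered genes -0.12 to -0.028 (and -0.027 with quality weights). The log2 ratio of the non-clustered sums was 0.020 on the TPM scale. Ybx1 passed the threshold in 6 alternatives. The causes of these changes were not tested.

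Of the 30 named protocadherins, 21 kept their sign in every alternative. With quality weights Pcdh15 was at 0.087, Pcdh12 at 0.030, Pcdh8 at -0.047, Pcdh10 at -0.0082 and Pcdh9 at -0.0038 (log2 fold change). On log2(TPM + 1) Pcdhgb6 was at 0.0061, and without both libraries in doubt Pcdh9 was at -0.028. With single libraries left out the ranges were -0.19 to 0.037 for Pcdhb7, -0.15 to 0.20 for Pcdhgb6, -0.23 to 0.088 for Pcdhgc3, -0.18 to 0.029 for Pcdh15, -0.062 to 0.092 for Pcdh9 and -0.34 to 0.031 for Pcdh11x.

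Same-numbered WT and cKO libraries had correlations of their deviations from the genotype mean of 0.406, 0.31 and -0.02, and those with different numbers of -0.434 to 0.263. As 1 of the 3 pairs was not above 0.1, the number was not used as a pairing. Sequencing was done in 3 batches, and whether a number marks a batch cannot be told apart with these labels. The replicate block gave 6 protocadherins lower at an unadjusted p under 0.05 in place of 7, while the share of all genes lower was 4.6% in place of 1.81%. Depth limits the Pcdhb genes, with a median of 27.0 estimated counts, and the division of shared reads limits single Pcdha and Pcdhg genes.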

Other observations

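Other cadherins of the same superfamily were read out from the same edgeR fit. Of 29 genes listed, 22 were tested and 0 passed the adjusted threshold. At an unadjusted p under 0.05, 2 were lower and 0 higher (background 1.81% and 1.75% of all genes). Negative values numbered 14 (49.2% of all genes had one), and the median log2 fold change was -0.06. In 2 of the 22, Fat4 and Fat3, all cKO libraries were below all WT libraries (background 4.83%), and in 2, Cdh11 and Cdh12, all were above (background 4.21%). The giant cadherin Fat4, a planar polarity protein that restrains neuroepithelial growth, was at 414, 366 and 394 CPM in WT and at 334, 323 and 323 CPM in cKO. Its genotypes did not overlap, and the log2 fold change was -0.26 (SE 0.07). Fat3 was at 266, 254 and 255 CPM in WT and at 251, 211 and 210 CPM in cKO, without overlap (log2 fold change -0.20, SE 0.09). Cdh11, a cadherin of mesenchyme and also of cortex, chosen after its values were seen, was at 86.8, 88.3 and 90.8 CPM in WT and at 93.6, 93.4 and 137 CPM in cKO, the highest being cKO replicate 3 with its mesenchymal markers (log2 fold change 0.29, SE 0.15). Cdh12, likewise chosen after its values were seen, was at 4.02, 4.77 and 5.31 CPM in WT and at 6.05, 5.33 and 5.91 CPM in cKO (log2 fold change 0.29, SE 0.16). Markers of erythroid cells summed to 376 to 651 CPM and those of microglia to 12.1 to 21.7 CPM over the libraries, with overlap between the genotypes in both.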
